A study of Mus musculus with 6 samples.

Results

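The transcripts described are those of 6 platelet surface receptors for soluble agonists, P2ry1, P2ry12 and P2rx1 for adenine nucleotides, F2rl2 and F2rl3 for thrombin, and Tbxa2r for thromboxane A2. They were chosen by name for this role, with earlier results of these data known. All 6 were found by Entrez identifier among the 9822 genes of the deposited count tables. The platelets were purified from mice and their polyA RNA was sequenced, with 3 pools from mice heterozygous for a C587R change in Nxf1 (Nxf1+/C587R) and 3 pools from wild-type littermates, all male and of the BalB/c background. Nxf1 encodes the main nuclear export receptor for mRNA, and the question is how platelet transcripts differ when 1 of its alleles is changed. Suspensions entered a pool when more than 98% of flow cytometry events were CD41-positive, and the labels give 1 mutant and 1 wild-type pool to each of 3 batches, taken here to be the 3 preparation days of the design text. The labels give neither the age of the mice nor the number of animals per pool, and they name no Cre or transgene that would restrict the allele to platelets.

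Platelets are activated step by step. Adhesion triggers release of ADP from dense granules and synthesis of thromboxane A2, while thrombin forms on the platelet surface, and each of these agonists recruits further platelets through its own receptors. P2Y1, the product of P2ry1, couples to Gq and starts calcium release and shape change. P2Y12, from P2ry12, couples to Gi, lowers cyclic AMP and sustains aggregation, and it is the target of clopidogrel and related drugs. P2X1, from P2rx1, is a cation channel opened by ATP. Thrombin receptors are cleaved by their agonist, which exposes a tethered ligand. In mouse platelets PAR4, from F2rl3, carries the signal and PAR3, from F2rl2, acts as its cofactor, whereas human platelets rely mainly on PAR1, the product of F2r. The thromboxane receptor, from Tbxa2r, couples to Gq and G13.

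The libraries held 25189231 to 29421549 counts. All 9 platelet markers were found, and they summed to 38186 to 42406 CPM in mutant and 29859 to 36699.6 CPM in wild-type libraries, with 4 higher and 1 lower. Erythroid markers, 7 of 9 found, ranged from 3971 to 31518 CPM in mutant and from 4307 to 35717 CPM in wild-type libraries. Monocyte markers, 7 of 9, summed to 1791 to 2107 and 1184 to 1630.3 CPM, held almost wholly by Lyz2, and 1 was higher and 2 lower. Neutrophil markers, 4 of 10, summed to 12.8 to 19.9 and 13 to 18.2 CPM, T cell markers, 6 of 7, to 13.8 to 17.4 and 15.5 to 21.1 CPM, and basophil and mast cell markers, 0 of 3, were not in the tables. Their part in the receptor results was not tested. Nxf1 itself had a log2 difference of -0.19 with an SE of 0.22 (edgeR adjusted p = 0.604), which does not check the labels because the change is a missense change.

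Both thrombin receptor transcripts and the ATP channel transcript were higher in mutant platelets, while the ADP receptor transcripts P2ry12 and P2ry1 did not pass the test. Fold changes were 1.91 for F2rl3, 1.46 for F2rl2 and 1.35 for P2rx1. Tbxa2r, with few reads, did not pass either. Of the 6 receptors 3 were higher, 0 were lower and 3 did not pass the edgeR quasi-likelihood test at a Benjamini-Hochberg adjusted p of 0.05. Over all 9822 genes this test called 22.1%, of which 12.9% of all genes were higher and 9.16% lower. With the batch as a block it called 40.0%, with 22.0% higher and 18.0% lower, and the same 3 receptors were called as higher. The median log2 fold change was 0.25 over the 6 receptors and -0.04 over all genes. Libraries of the 2 genotypes did not overlap for the same 3 receptors, all higher in mutants, beside 36.3% of all genes in either direction and 20.4% with mutants higher. These shares of all genes were not matched for level. In a fit limited to genes averaging 10 CPM or more, 1478 of 3017 genes were called. In that fit P2rx1 and F2rl2 were higher, P2ry12 was lower and P2ry1 did not pass. F2rl3 and Tbxa2r were too low to enter it. In platelet pools, fewer cells of a type and less RNA per cell cannot be told apart.

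**Figure D1:**
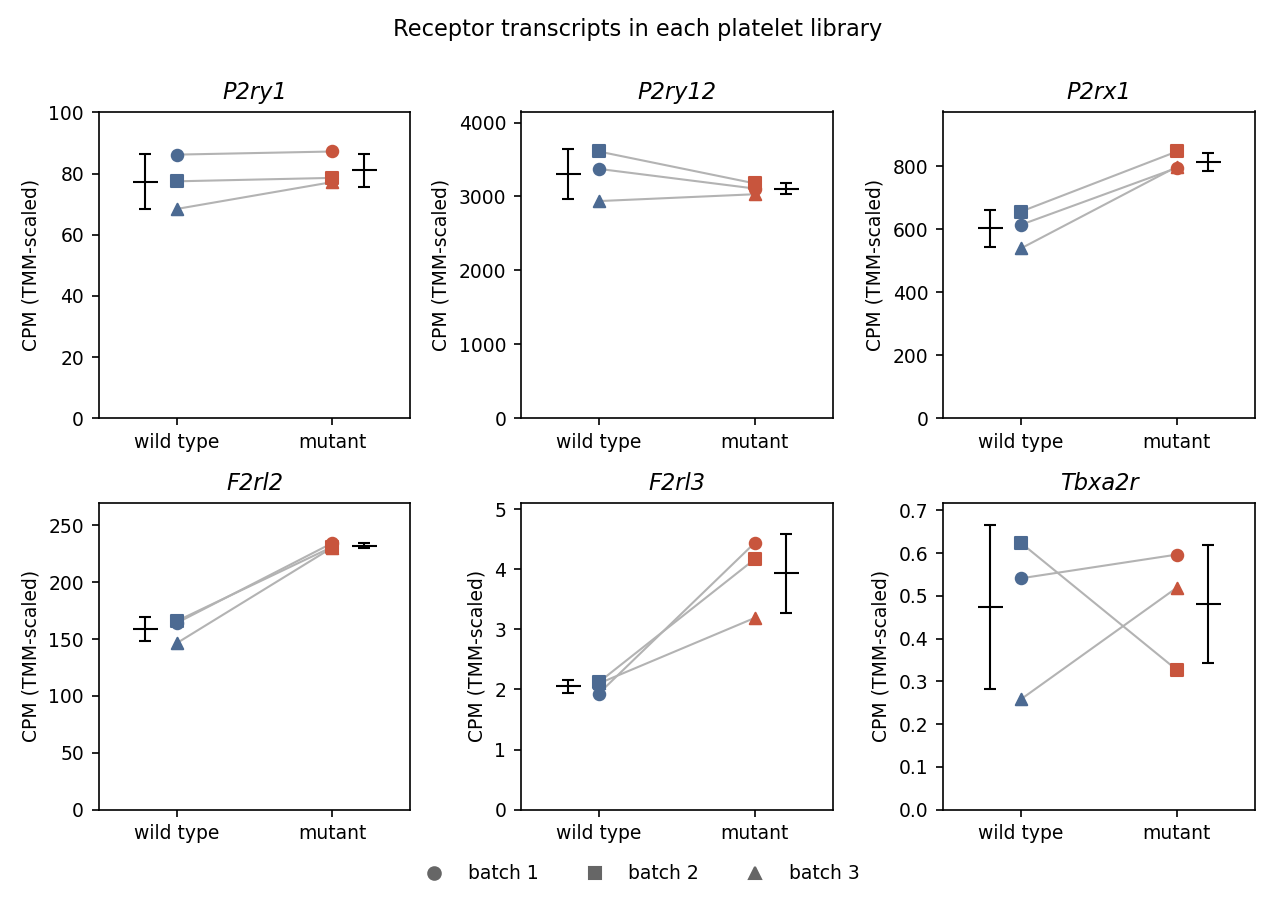
Normalised read counts (CPM, vertical axes starting at 0) of the 6 receptor transcripts in each library, with wild type on the left and mutant on the right of each panel. Grey lines join the libraries of a batch and black bars give the mean and SD of 3 libraries. The groups are apart for P2rx1, F2rl2 and F2rl3 and overlap for P2ry1, P2ry12 and Tbxa2r.

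Because P2rx1, F2rl2 and F2rl3 were higher together, the 250 bases before their transcript starts in the RefSeq promoter table are shown with those of P2ry12 and P2ry1, which did not pass the main test. The listed start of P2rx1 lies within the gene, so that the last 89 bases of its window fall inside the gene's interval, while the windows of the other 4 genes shown end at the base before it. Sequences are from RefSeq on GRCm38.p6, the assembly of mm10, on the strand of each gene and 5′ to 3′, and capitals mark matches to the GATA words AGATAA and TGATAA on either strand. Factors of the GATA family are known regulators of megakaryocyte genes. The windows are chr11:72998895-72999144 (+ strand) for P2rx1, chr13:95696670-95696919 (+ strand) for F2rl2, chr8:72761409-72761658 (+ strand) for F2rl3, chr3:59262986-59263235 (- strand) for P2ry12 and chr3:61002535-61002784 (+ strand) for P2ry1.
P2rx1: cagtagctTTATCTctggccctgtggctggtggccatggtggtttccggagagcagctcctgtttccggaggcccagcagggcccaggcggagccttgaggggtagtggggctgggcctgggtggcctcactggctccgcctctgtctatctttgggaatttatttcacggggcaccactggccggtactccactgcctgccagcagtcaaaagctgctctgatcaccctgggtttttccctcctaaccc
F2rl2: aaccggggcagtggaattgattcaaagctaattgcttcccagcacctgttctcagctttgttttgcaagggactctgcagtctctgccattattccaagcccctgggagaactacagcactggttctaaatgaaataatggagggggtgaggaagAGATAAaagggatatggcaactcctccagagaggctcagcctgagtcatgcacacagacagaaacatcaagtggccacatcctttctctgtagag
F2rl3: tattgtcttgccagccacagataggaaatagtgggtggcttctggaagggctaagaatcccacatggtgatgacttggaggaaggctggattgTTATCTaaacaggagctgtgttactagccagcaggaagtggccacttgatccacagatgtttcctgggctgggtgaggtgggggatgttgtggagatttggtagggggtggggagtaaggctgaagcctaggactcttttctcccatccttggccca
P2ry12: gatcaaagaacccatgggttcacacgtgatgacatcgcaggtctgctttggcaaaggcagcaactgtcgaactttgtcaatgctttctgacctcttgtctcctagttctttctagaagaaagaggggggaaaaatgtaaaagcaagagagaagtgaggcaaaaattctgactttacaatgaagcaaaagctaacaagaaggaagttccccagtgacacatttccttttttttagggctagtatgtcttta
P2ry1: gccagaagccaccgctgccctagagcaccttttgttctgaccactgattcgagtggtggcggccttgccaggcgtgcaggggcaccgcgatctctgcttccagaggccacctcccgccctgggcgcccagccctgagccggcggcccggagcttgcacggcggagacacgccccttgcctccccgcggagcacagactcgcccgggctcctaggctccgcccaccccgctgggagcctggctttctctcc
Each of the 3 receptors that were higher had 1 GATA match, which began 95 bases before the start in F2rl2 and 157 in F2rl3. In P2rx1 it began 242 bases before the listed transcript start, which is 153 bases before the start of the gene's interval. P2ry12, P2ry1 and both listed starts of Tbxa2r had 0, and 16.6% of all 32851 RefSeq windows of this length had a match. ETS words, AGGAAG and CCGGAA on either strand, matched in P2rx1, F2rl2, F2rl3, P2ry12 and 1 of the Tbxa2r windows, as they did in 38.2% of all windows. RUNX words, TGTGGT and TGCGGT, matched in none of the 6 receptors' windows and in 18.6% of all. The ETS match of F2rl2 ended directly before its GATA match, and no matches shared letters. The words were chosen after the values of the genes were known, and a match is a description of letters, not of a bound site.

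P2ry12 (Entrez 70839, chromosome 3, 59216271 to 59262985, mm10) was the most abundant of the 6. It had 3108, 3178 and 3030.3 CPM in mutant batches 1, 2 and 3 and 3374, 3609 and 2938 CPM in the wild-type libraries of the same batches. CPM are scaled to library totals adjusted by the trimmed mean of M values (TMM). The mutant values lay within the wild-type range, with the mutant library lower in batches 1 and 2 and higher in batch 3. The fold change was 0.939, with a 95% interval of 0.792 to 1.11 (adjusted p = 0.642 by edgeR). The test does not show that the levels were equal. P2ry12 was called as lower in a fit limited to genes averaging 10 CPM or more, where its log2 difference was -0.25 (edgeR adjusted p = 0.00384). The scaling of that fit moved the fold changes of the same genes by a median of -0.17. The SE of P2ry12 was 0.052 in it and 0.118 in the main fit. The part of either in that call was not tested. P2ry12 lies within Med12l on the opposite strand, and annotated exons of the pair share 9 bases, so few reads could belong to either gene.

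The gene of the Gq-coupled ADP receptor, P2ry1 (Entrez 18441, chromosome 3, 61002785 to 61008982), had 87.2, 78.6 and 77.2 CPM in mutant batches 1 to 3 and 86.2, 77.4 and 68.4 CPM in wild-type batches 1 to 3. The mutant library was slightly higher in each batch, and the groups overlapped. Its fold change was 1.05 (95% interval 0.883 to 1.24, adjusted p = 0.744 by edgeR), and its log2 value turned to -0.03 without mutant replicate 1 and to -0.01 without wild-type replicate 3 or with library size alone. An antisense gene, Gm37035, covers 23.1% of the annotated exon bases of P2ry1, and the TruSeq RNA v2 kit keeps no strand, so its values are uncertain.

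P2rx1 (Entrez 18436, chromosome 11, 72999056 to 73015200) was higher in every mutant library, with 794, 846 and 798 CPM beside 614, 656 and 539 CPM in wild-type batches 1 to 3. The lowest mutant value exceeded the highest wild-type value. Mean levels were 813 ± 29.0 and 603 ± 59.1 CPM (SD, n = 3 each), a log2 difference of 0.43 with an SE of 0.12 (edgeR adjusted p = 0.0104). Log2 differences within batches 1, 2 and 3 were 0.37, 0.37 and 0.57. With the batch as a block the log2 difference was 0.44 (edgeR adjusted p = 1.4e-09). The fits that left out libraries or batches had genotype as the only term. The call was lost without mutant replicate 1 (log2 0.40, adjusted p = 0.087 by edgeR), mutant replicate 2 (0.35, adjusted p = 0.149) or wild-type replicate 1 (0.40, adjusted p = 0.0676), and without batch 1 (0.42, adjusted p = 0.169) or batch 2 (0.42, adjusted p = 0.181). The call held without batch 3 (0.38, edgeR adjusted p = 0.000619).

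F2rl2, the PAR3 gene (Entrez 14064, chromosome 13, 95696920 to 95702768), had 234, 231 and 230.4 CPM in mutant libraries, a narrow range, and 164, 166 and 146 CPM in wild-type batches 1 to 3. The groups were far apart compared with the spread in each. Means were 232 ± 2.14 and 159 ± 10.8 CPM (SD, n = 3 each), a log2 difference of 0.55 with an SE of 0.11 (edgeR adjusted p = 0.00092). Within batches the log2 differences were 0.52, 0.48 and 0.66, and the fit with the batch as a block gave 0.55 (edgeR adjusted p = 4.2e-15). In fits with genotype as the only term, leave-out results were as follows. F2rl2 stayed called when any 1 library was left out, but was not called without batch 1 (0.52, adjusted p = 0.0536 by edgeR) and without batch 2 (0.54, adjusted p = 0.0534). F2rl2 was called without batch 3 (0.51, edgeR adjusted p = 3.7e-05). The gene lies inside Iqgap2 on the opposite strand, and annotated exons of the pair share 0 bases.

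F2rl3, which encodes PAR4 (Entrez 14065, chromosome 8, 72761659 to 72763898), showed the highest fold change of the 6 at a low level. It had 4.44, 4.17 and 3.19 CPM in the mutant libraries and 1.93, 2.12 and 2.10 CPM in the wild-type libraries, from 119, 102 and 86 counts beside 50, 51 and 65. The 3 wild-type values were close together and the mutant values spread more widely above them. The log2 difference was 0.94 with an SE of 0.19 (edgeR adjusted p = 0.00145), which is 1.91-fold with a 95% interval of 1.45 to 2.53. The log2 difference was 1.2 in batch 1, 0.97 in batch 2 and 0.60 in batch 3. Blocking by batch gave 0.92 (edgeR adjusted p = 4.9e-08). The call held in all 9 fits that left out 1 library or batch, up to an adjusted p of 0.0489 without batch 1.

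Tbxa2r (Entrez 21390, chromosome 10, 81328268 to 81335174) was at the low end of the tables. Its counts were 16, 8 and 14 in mutant batches 1 to 3 and 14, 15 and 8 in wild-type batches 1 to 3, or 0.597, 0.327 and 0.519 CPM beside 0.541, 0.624 and 0.258 CPM. The mutant library was higher in batches 1 and 3 and lower in batch 2. The fold change of 1.05 had a 95% interval of 0.598 to 1.84 (adjusted p = 0.925 by edgeR), so a difference of the size seen for P2rx1 or F2rl2 was not detectable at this depth. Its sign changed in 6 of 20 alternatives, which include the fit without a low-count filter, identical to the main fit.

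Levels of different genes were compared as CPM per kilobase of deposited gene length. Over the 6 libraries the order was P2ry12 at 1371, P2rx1 at 290.0, F2rl2 at 79.3, P2ry1 at 20.4, F2rl3 at 1.70 and Tbxa2r at 0.249 CPM per kilobase. Mutant and wild-type means were 1328 ± 31.5 and 1414 ± 146 for P2ry12, 333 ± 11.9 and 247 ± 24.2 for P2rx1, 94.1 ± 0.869 and 64.4 ± 4.38 for F2rl2 and 20.8 ± 1.39 and 19.9 ± 2.29 for P2ry1 (SD, n = 3 each). They were 2.23 ± 0.372 and 1.16 ± 0.0584 for F2rl3 and 0.251 ± 0.0724 and 0.247 ± 0.0998 for Tbxa2r (SD, n = 3 each). No library value of a gene overlapped those of the next gene in this order. P2ry12 was 4.73 times P2rx1, P2rx1 was 3.66 times F2rl2, F2rl2 was 3.89 times P2ry1, P2ry1 was 12 times F2rl3 and F2rl3 was 6.82 times Tbxa2r. Among all 9822 genes ranked by mean CPM per kilobase, P2ry12 was at place 62, P2rx1 at 221, F2rl2 at 557, P2ry1 at 1249, F2rl3 at 4540 and Tbxa2r at 8788. The transcripts of PAR4 and of the thromboxane receptor, both known to act in mouse platelets, were below that of the cofactor PAR3 in every library. F2r, the gene of the human platelet thrombin receptor, was above F2rl3 with 2.91 CPM per kilobase in wild-type libraries, and the 2 genes did not overlap within either genotype.

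**Figure D2:**
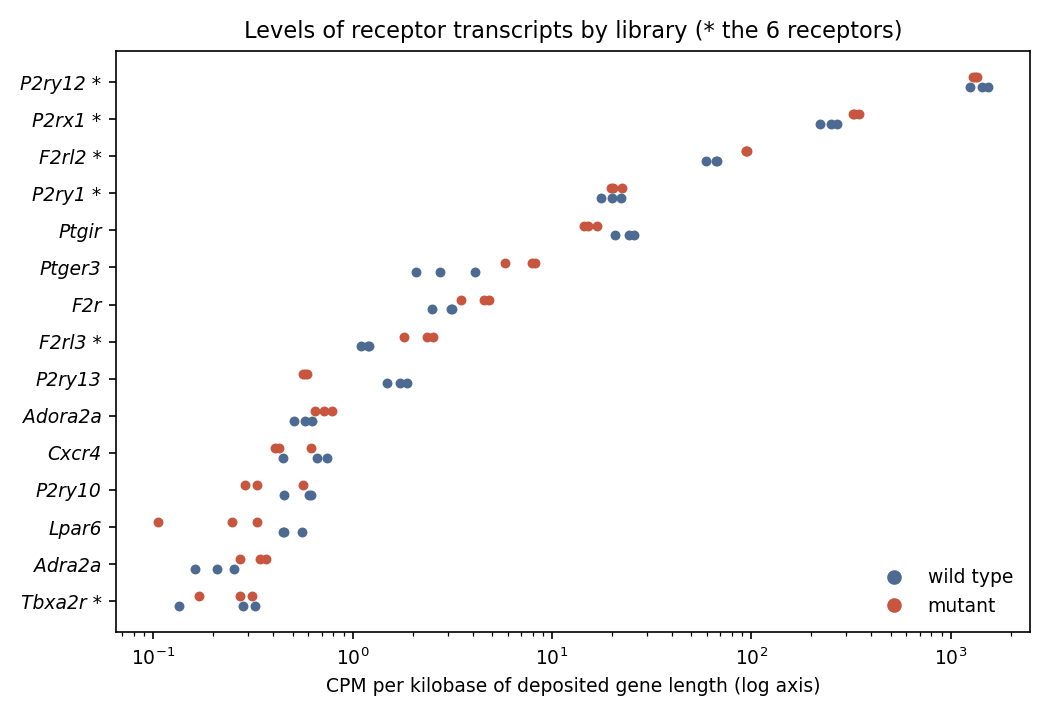
Level of each receptor transcript in each library as CPM per kilobase on a log axis, with the 6 receptors marked by an asterisk and 9 other agonist receptors listed with them. Points are single libraries, wild type in blue and mutant in red. P2ry12, P2rx1 and F2rl2 lie above all others shown, P2ry1 lies beside Ptgir, and F2rl3 and Tbxa2r lie among the low ones.

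Proportions between receptors of 1 library do not depend on how libraries are scaled. P2rx1 was 0.256, 0.266 and 0.263 of P2ry12 in the mutant libraries and 0.182, 0.182 and 0.183 in the wild-type libraries. This ratio was nearly constant within a genotype and its groups did not overlap, with a 1.43-fold difference. P2rx1 was also higher relative to P2ry1, at ratios of 9.11 to 10.8 in mutant and 7.12 to 8.47 in wild-type libraries, a difference of 1.29-fold, and these groups did not overlap either. For both ratios the two-sided exact permutation p was 0.1, the smallest that 3 against 3 allows (adjusted p = 0.2 over 4 ratios). The pair of ADP receptors, P2ry12 to P2ry1, had ratios of 35.6 to 40.4 in mutant and 39.1 to 46.6 in wild-type libraries (exact permutation p = 0.3, adjusted p = 0.3). It was lower in the mutant library of each batch, by 0.14, 0.20 and 0.13 on the log2 scale, and the groups overlapped. For F2rl3 to F2rl2 the ratio was 0.0189, 0.0180 and 0.0138 in mutant batches 1 to 3 and 0.0118, 0.0128 and 0.0144 in wild-type batches 1 to 3 (exact permutation p = 0.2, adjusted p = 0.267). These groups overlapped, and the ratio was lower in the mutant library of batch 3. P2ry12 made up 73.2% to 73.5% of the summed CPM of the 6 receptors in mutant and 79.5% to 80.0% in wild-type libraries.

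**Figure D3:**
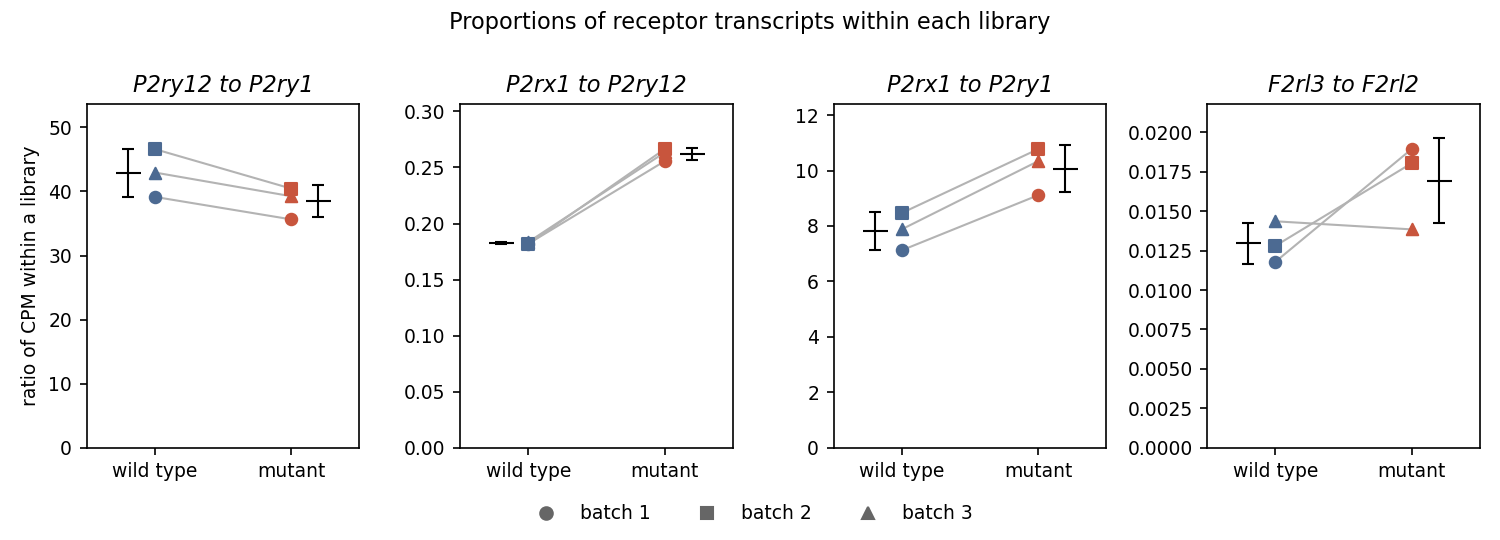
Ratio of CPM of 2 receptor transcripts within each library, with axes starting at 0, wild type on the left, mutant on the right and black bars for the mean and SD of 3 libraries. The ratio of P2rx1 to P2ry12 is 0.182 to 0.183 in wild-type libraries and 0.256 to 0.266 in mutant libraries.

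Among the other agonist receptors fixed as a list, 9 of 26 were in the tables, of which 2 were higher, 3 lower and 4 did not pass (median log2 fold change -0.33). The 55.6% called stand beside 22.1% of all genes. Prostanoid receptors moved in both directions. Ptger3, the receptor through which prostaglandin E2 favours platelet aggregation, had 16.0, 16.7 and 11.7 CPM in mutant and 5.53, 8.27 and 4.20 CPM in wild-type batches 1 to 3. The log2 difference was 1.31 with an SE of 0.21 (edgeR adjusted p = 0.00046), and the groups did not overlap. Ptgir, the receptor of the platelet inhibitor prostacyclin, had 55.8, 50.3 and 48.2 CPM in mutant and 85.7, 81.4 and 69.1 CPM in wild-type libraries. It fell by 0.61 on the log2 scale with an SE of 0.12 (edgeR adjusted p = 0.000846), also without overlap. F2r had 16.0, 14.9 and 11.6 CPM in mutant and 10.4, 10.2 and 8.20 CPM in wild-type libraries. It rose by 0.56 (adjusted p = 0.00815 by edgeR), and its call was lost without mutant replicate 1, mutant replicate 2, batch 1 or batch 2, with adjusted p up to 0.103. P2ry13, an ADP receptor gene next to P2ry12, fell from 4.28 ± 0.502 to 1.46 ± 0.0270 CPM (SD, n = 3 each), a log2 difference of -1.55 with an SE of 0.19 (edgeR adjusted p = 1.01e-05). It lies within Med12l as well, and exon bases shared by this pair were not counted, so its values are uncertain at this level. Beside F2r, 3 of 4 endothelial markers were in the tables, with a summed level of 48.9 to 52.4 CPM in mutant and 33.3 to 43.1 CPM in wild-type libraries, and 1 of them, Plvap, was higher like F2r (log2 0.39, edgeR adjusted p = 0.0187). Beside P2ry13, whose family is also found on leukocytes, all 8 B cell markers were found with sums of 249 to 314 CPM in mutant and 320.1 to 429 CPM in wild-type libraries, and 4 of them were lower. The other leukocyte lists differed from this. T cell and neutrophil markers had 0 called, and monocyte markers had 1 higher and 2 lower, with a higher sum in mutants. The part of these cells in either result was not tested.

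**Figure D4:**
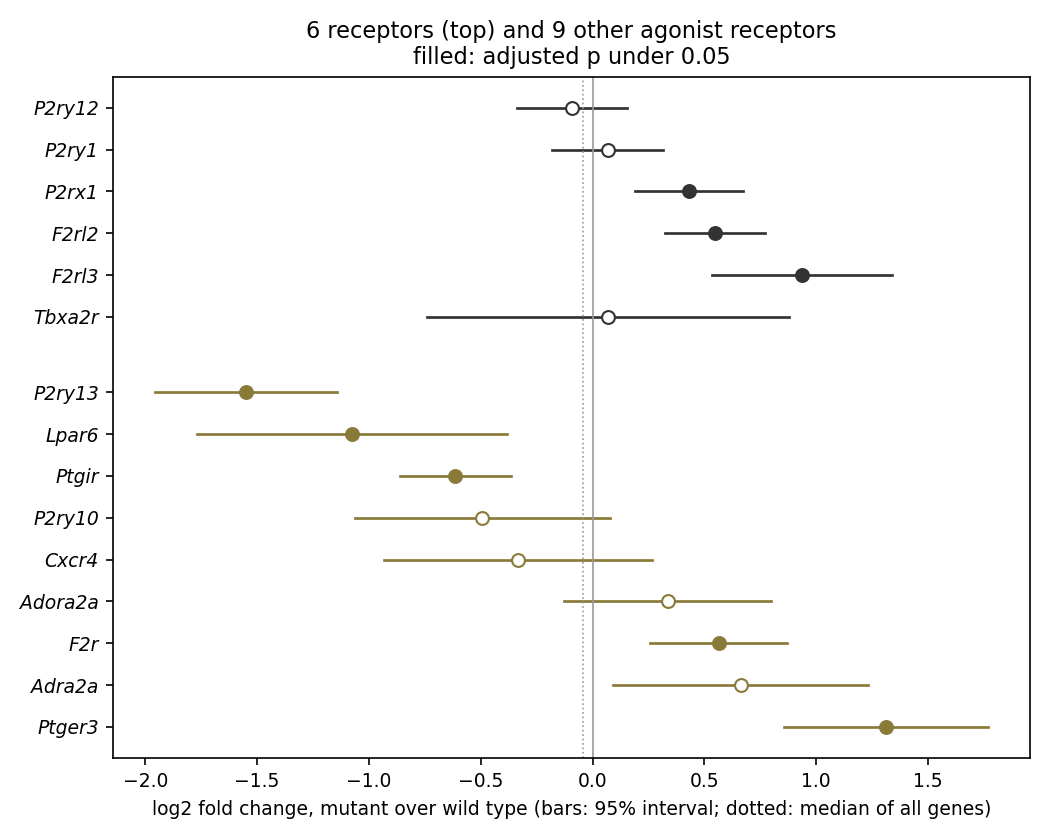
Log2 fold change of mutant over wild type with its 95% interval for the 6 receptors (top, black) and 9 other agonist receptors (below, ochre). Filled points passed the edgeR test, the solid line marks 0 and the dotted line the median of all genes at -0.04. P2rx1, F2rl2, F2rl3, F2r and Ptger3 are filled on the right, and P2ry13, Lpar6 and Ptgir on the left.

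Of 19 G protein subunit genes 5 were higher and 3 lower, 42.1% beside 22.1% of all genes, with a median log2 fold change of 0.10. Here and in the lists that follow, genes said to rise or fall passed the edgeR test. Gnai2, the alpha subunit through which P2Y12 signals, rose from 684 ± 54.6 to 954 ± 60.1 CPM (SD, n = 3 each, adjusted p = 0.00508 by edgeR), and Gnaz, another Gi-class subunit, rose by 0.74 on the log2 scale (edgeR adjusted p = 0.00012). Gnaq, the alpha subunit used by P2Y1, had 0.35 and did not pass (adjusted p = 0.0824 by edgeR), but it was higher with the batch as a block (edgeR adjusted p = 3.5e-06) and in each of the 3 batches, by 0.33, 0.32 and 0.40. The gamma subunit gene Gng11 fell from 19719 ± 2953 to 9931 ± 1275 CPM, whereas Gng12 rose by 0.88 on the log2 scale. Values of Gnaz are uncertain because it overlaps Rsph14. The Gnai2 call was lost without mutant replicate 1, mutant replicate 2, batch 1 or batch 2, with adjusted p up to 0.166.

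Of 18 genes that limit receptor signals 3 were higher and 1 lower, or 5 and 4 with the batch as a replicate block, and the median log2 fold change was -0.02. The share called without the block, 22.2%, is that of all genes, 22.1%, and the 9 called with the block stand beside 40.0% of all genes. Arrb1, which encodes the receptor adaptor beta-arrestin 1, had 630.4 ± 56.1 CPM in wild-type and 969 ± 39.6 CPM in mutant libraries (SD, n = 3 each, edgeR adjusted p = 0.00056). Ppp1r9b, the spinophilin gene, rose by 0.82 on the log2 scale. Rgs6, a GTPase activator, fell by 1.02 and Rgs12, of the same family, rose by 0.61. The 2 most abundant brakes per length, Rgs18 (-0.17) and Rgs10 (-0.03), did not pass, and Rgs18 was called as lower with the block (edgeR adjusted p = 0.0496). Arrb1 lost its call without batch 2 (adjusted p = 0.0544 by edgeR). Rgs12 lost it without mutant replicates 1 or 2, wild-type replicates 2 or 3 or any batch (up to 0.359), and with upper-quartile factors, library size alone or DESeq2.

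Effectors act downstream of the G proteins. Beside 22.1% of all genes, 46.7% of the Gq, 40.0% of the G12 and G13 and 50% of the Gi effectors were called. Of 15 Gq effectors 5 were higher and 2 lower (median -0.02). Plcb1, a phospholipase C activated by Gq, fell from 46.6 ± 4.82 to 16.3 ± 0.699 CPM (SD, n = 3 each), with a log2 fold change of -1.52, and the protein kinase C gene Prkcb fell by 0.94. Prkce rose by 0.57 and Stim1, the calcium sensor of the store, by 0.48. Of 15 G12 and G13 effectors 5 were higher and 1 lower (median 0.17), with Myh9 at 0.72, Mylk, the myosin light chain kinase gene, at 0.60, Arhgef12, a guanine nucleotide exchange factor gene, at 0.58 and Rhoa at 0.33. Of 14 Gi effectors 6 were higher and 1 lower (median 0.12). The kinase gene Src had 1.19, the adenylyl cyclase genes Adcy5 and Adcy6 had 0.98 and 0.70, and Pik3cg, a lipid kinase driven by G protein beta-gamma subunits, had 0.65. Mylk overlaps an unnamed transcript gene and is uncertain. Calls were lost without mutant replicate 1 for Stim1, Arhgef12 and Rhoa, without mutant replicate 2 for Rhoa, without wild-type replicate 1 for Rhoa, and without wild-type replicate 2 for Stim1 and Rhoa. They were also lost without batch 1 for Stim1 and Rhoa and without batch 2 for Stim1, Arhgef12, Rhoa and Mylk. The highest adjusted p by edgeR was 0.16 for Stim1, 0.0584 for Arhgef12, 0.423 for Rhoa and 0.0528 for Mylk. Rhoa was also not called with RLE factors, without the 10 most abundant genes, in a fit limited to genes averaging 10 CPM or more, or after a length correction.

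**Figure D5:**
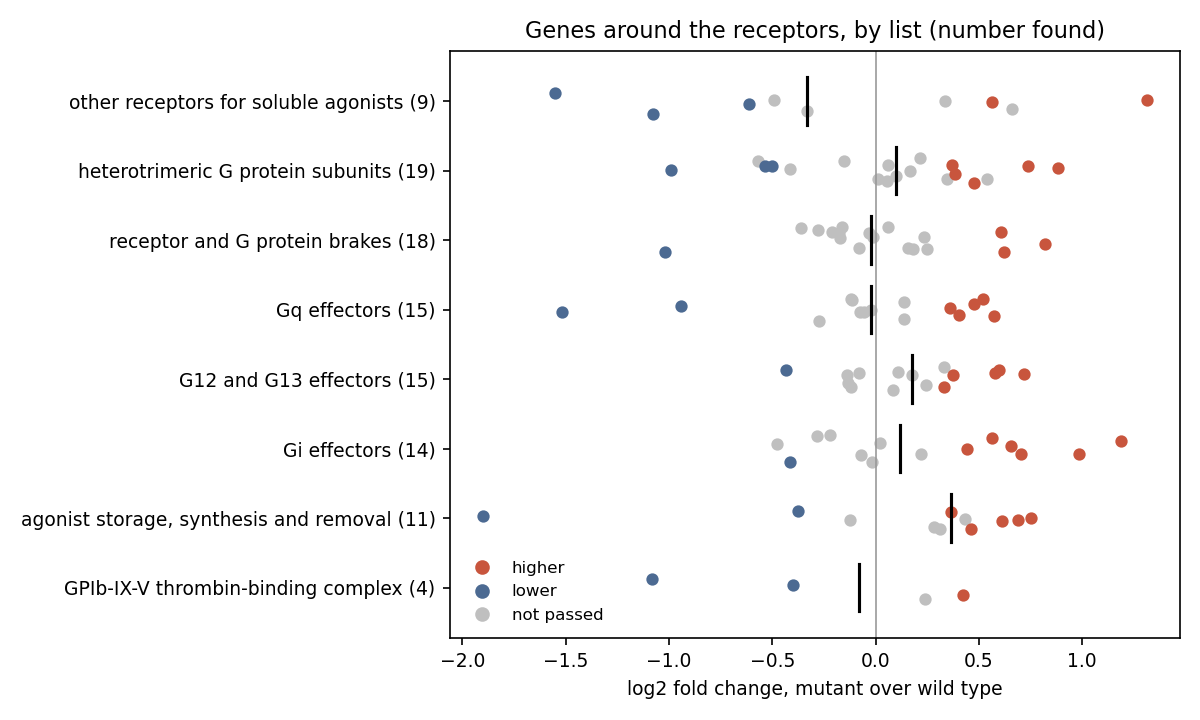
Log2 fold change of mutant over wild type for each gene found in 8 lists of genes around the receptors, with red for higher, blue for lower and grey for genes that did not pass the edgeR test. Vertical bars mark list medians, from -0.33 in the other agonist receptors to 0.37 in agonist supply.

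Genes that supply or remove the agonists included 5 higher and 2 lower of 11 (63.6% called, median 0.37). The clotting factor genes F10, F13a1 and F5, whose products take part in thrombin formation or fibrin cross-linking, had log2 fold changes of 0.75, 0.69 and 0.61. F5 overlaps Gm16548 and is uncertain. Slc35d3, needed for dense granules that store ADP, fell from 0.889 ± 0.42 to 0.224 ± 0.16 CPM (SD, n = 3 each), a level near that of single counts in mutant replicate 2, and lost its call without batch 2 (adjusted p = 0.136 by edgeR). Of the 4 genes of the GPIb-IX-V complex, which binds thrombin as well as von Willebrand factor, Gp1ba fell by 1.08 on the log2 scale, in the opposite direction to both thrombin receptor transcripts. Gp9 fell by 0.40, Gp5 rose by 0.42 and Gp1bb (0.24) did not pass, though it was higher with the block (edgeR adjusted p = 0.00161). Gp9 lost its call without any 1 of the mutant replicates, wild-type replicates 1 or 2 or batches 1 or 2 (adjusted p up to 0.234 by edgeR) and after the length correction. Gp5 lost it without mutant or wild-type replicates 1 or 2 or batches 1 or 2 (up to 0.222), with library size alone and in the fit limited to genes averaging 10 CPM or more. Over all 8 lists 32 of 105 genes were higher and 15 lower, a share of 44.8% beside 22.1% of all genes. Fewer were called without batch 2 (13 and 7), batch 1 (18 and 9), mutant replicate 1 (16 and 10) or mutant replicate 2 (18 and 9). All genes called fell from 2166 to 1005, 1197, 1491 and 1382 in the same fits. Without batch 3, 34 genes of the lists were higher and 16 lower, and 2389 of all genes were called. In the fit limited to genes averaging 10 CPM or more, 1478 of 3017 genes were called, a larger share than over all genes. The shares set beside 22.1% in this and the preceding paragraphs were not matched for level.

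Chromosomal neighbours of P2rx1 were higher with it, beside 12.9% of all genes that were higher. Atp2a3, which encodes the calcium pump of the platelet store and ends 6.01 kb before P2rx1, rose from 4477 ± 387 to 7337 ± 227 CPM (SD, n = 3 each). Camkk1, a kinase gene that begins 0.843 kb after P2rx1, rose from 4.44 ± 0.0262 to 8.15 ± 0.350 CPM. Their log2 fold changes were 0.71 (adjusted p = 0.000172 by edgeR) and 0.88 (adjusted p = 0.000207). F2r is the nearest tested gene on 1 side of F2rl2, 78.5 kb away, and was higher like it, while Poc5 on the other side (-0.57) and the overlapping Iqgap2 (-0.66) did not pass, although Iqgap2 was called as lower with the block (edgeR adjusted p = 0.0479). Mean levels in mutant and wild-type libraries were low, at 0.446 and 0.658 CPM for Poc5 and 0.673 and 1.09 CPM for Iqgap2. Around P2ry12, P2ry13 was lower as given above, and Med12l (-0.08) and Mbnl1 (0.16) did not pass, although Mbnl1 was called as higher with the block (edgeR adjusted p = 0.038). Rap2b (0.03), Sin3b (0.13), Cactin (-0.17) and Hmg20b (0.25), which neighbour P2ry1, F2rl3 or Tbxa2r, did not pass either. Hmgxb4, the tested gene nearest to F2rl3 at higher coordinates but 2230 kb away, fell by 0.91. Its level was low, with 1.13 ± 0.228 CPM in wild-type and 0.60 ± 0.0295 CPM in mutant libraries (SD, n = 3 each). It lost its call in 7 of 9 fits that left out 1 library or batch, those without mutant replicates 1 or 2, wild-type replicates 1 or 3 or any batch, with adjusted p up to 0.155, and by DESeq2, with adjusted p up to 0.159.

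Across the 6 libraries the Pearson correlation of log2 CPM was 0.98 between P2rx1 and F2rl2. It was 0.93 between F2rl2 and F2rl3 and 0.89 between P2rx1 and F2rl3. These 3 receptors were higher in every mutant library, so high correlations among them follow largely from that difference and are no separate result. P2ry12 had -0.07 with P2rx1 and 0.39 with P2ry1. The genes most like P2rx1 were Gp6, the collagen receptor gene (r = 0.999), Ncoa2 (0.997) and Itgb5 (0.997). F2rl2 was most like As3mt, Tollip and Dstn (at least 0.999 each), and F2rl3 most like Gatad2a (0.995), Ythdc1 (0.994) and Inppl1 (0.988). For P2ry12 these were Erlec1 (0.987), Ggps1 (0.979) and Bbip1 (0.971), for P2ry1 Rasa2 (0.979), Actr2 (0.977) and Ralgps2 (0.976), and for Tbxa2r Myo6 (0.944) and Osbpl8 (0.935). These values describe 6 libraries that share genotype and batch, and the genes named are the closest of 2964 or 2965.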

How the data were processed

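Each library's file, as deposited by the authors, gives raw counts by Entrez gene and a gene length. The submitters' processing notes name CASAVA 1.8.2, Subread, featureCounts and mm10, with settings, annotation, multi-mapping and strand mode not given in the sources used here. All 9822 deposited genes entered the tests, since filterByExpr removed 0. Gene symbols and coordinates came from RefSeq GRCm38.p6, where 9636 identifiers matched, and exon overlaps came from GENCODE M21.

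The test was edgeR 4.0.16 under R 4.3.3 (TMM scaling, robust quasi-likelihood fit, genotype as the only term, two-sided, Benjamini-Hochberg over all genes at 0.05), and the fit was tested on simulated data. The SE is the log2 fold change divided by the square root of F. CPM uses TMM-scaled totals. Ratios of CPM were compared by a two-sided exact permutation test, which cannot go below 0.1. The fit was repeated with other scalings, with DESeq2 1.42.0 and limma-voom (limma 3.58.1), other filters, a length correction (loess, span 0.5), each library or batch left out and the batch as a block.

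The batch number pairs the libraries, since the 3 batches are taken to be the 3 preparation days of the design text, and deviations from group means correlated at 0.431, 0.271 and 0.482 within batches. Within a group, every pair of libraries differed by more than sampling noise (mean chi-square per gene of at least 14.5). The design text describes the wild-type records as duplicates of another series. Labels do not say how many animals a pool held, so the p-values reflect only how these pools varied.

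The members and lists were chosen with earlier results of these data known. Named were the 6 receptors, up to 4 called genes per list with the smallest p, tested genes that overlap or neighbour a receptor, and, among genes averaging 10 CPM or more, the 3 most correlated with each receptor. Lpar6, Gnaq, Rgs18, Rgs10, Gp1bb and Plvap were named after their values were seen. For Tbxa2r, 1 of the 3 correlated genes is not reported here.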

Additional observations from a re-analysis of the deposited data

How the results depend on the processing

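Over 21 alternatives F2rl2 and P2rx1 stayed higher, with log2 fold changes of 0.38 to 0.55 and 0.27 to 0.45, and F2rl3 was called in all 20 that gave a value, at 0.76 to 1.10. Among these alternatives, the fit without the low-count filter repeats the main fit, since the filter removed 0 genes. The calls of P2rx1 and F2rl2 were lost only when libraries or batches were left out, in fits with genotype as the only term. F2rl2 was not called without batch 1 (0.52) or batch 2 (0.54), and P2rx1 was not called without batch 1 (0.42) or batch 2 (0.42) nor without 3 of the single libraries. Without batch 3 both were called, F2rl2 at 0.51 (edgeR adjusted p = 3.7e-05) and P2rx1 at 0.38 (edgeR adjusted p = 0.000619). With 1 library left out, P2rx1 ranged from 0.35 to 0.45, P2ry1 from -0.034 to 0.11 and Tbxa2r from -0.26 to 0.27. P2ry12 was called as lower in the fit limited to genes averaging 10 CPM or more (-0.25, edgeR adjusted p = 0.00384), where the scaling moved the fold changes of the same genes by a median of -0.17. That setting and library size alone, which moved all genes by a median of -0.08, gave P2ry1 log2 values of -0.10 and -0.0098. Tbxa2r had -0.0088 with library size alone, -0.22 by limma-voom with quality weights, -0.027 without batch 1 and -0.30 without batch 3. Among neighbours, Mbnl1 had -0.00047 and Sin3b -0.033 in the fit limited by CPM. Rap2b had -0.14 in it, -0.016 without the 10 most abundant genes as well as with upper-quartile scaling, -0.052 with library size alone and -0.0035 by limma-voom with quality weights. Rap2b had -0.014 without batch 1 and -0.019 without batch 2, and with 1 library left out it ranged from -0.16 to 0.14. F2rl3 and Tbxa2r have no value in the fit limited by CPM, and DESeq2 gave no adjusted p for Tbxa2r. The cause of these shifts was not tested. Left-out fits rest on fewer libraries, and without batch 3 more genes were called than in the main fit.

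All genes called rose from 2166 to 3929 with the batch as a replicate block. They fell to 1197 without batch 1 and 1005 without batch 2, but were 2389 without batch 3. With 1 library left out they ranged from 1382 to 2276. Pathway genes called fell from 47 to 27 without batch 1 and to 20 without batch 2, but were 50 without batch 3. With 1 library left out they were 26 to 46. The replicate block changed no call of the 6 receptors and raised the pathway genes called to 66. For the ratios, the mean within-batch difference equals the difference of group means by arithmetic, so the block could not change it. The smallest possible exact p is 0.25 for 3 pairs. Each of the 4 ratios kept its direction in 9 alternatives. For P2rx1 to P2ry12 and P2rx1 to P2ry1, whose groups did not overlap, leaving out libraries could not reverse the direction. Depth limits Tbxa2r, with 8 to 16 counts per library.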
